A study of Mus musculus with 16 samples.

Results

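The AP-1 and immediate early factors Fos, Fosb, Fosl1, Fosl2, Jun, Junb, Jund, Atf3, Egr1 and Ier3 were followed in mouse alveolar rhabdomyosarcoma (aRMS) cells with and without knockdown of the fusion oncogene Pax3:Foxo1a. A member was any probe whose platform gene symbol is 1 of these 10 names. Of the 10, 9 had a probe, each with 1 probe, among 25697 probes and 16593 named genes on the array. No probe carried the name Fosl2, so that member has no value here. All 9 measured members passed the filter on detection and entered every test. The cells were a tumor culture from the Myf6Cre,Pax3:Foxo1a,p53 conditional mouse, in which Cre made in the Myf6 lineage of maturing muscle switches on the fusion allele, and all 6 groups share that genotype. In the knockdown groups cells were transfected with 10 nM siYFP, an siRNA against the eYFP sequence carried on the Pax3:Foxo1a mRNA, and in the control groups with a control siRNA. Cells were then stained with a Hoechst DNA dye and sorted by DNA content into 2N (G1/G0), 3N (S) and 4N (G2/M) cells. The 2N and 4N groups had 3 arrays each, 1 from each of 3 experiments, and the 3N groups had 2 arrays each, from experiments 1 and 2. The labels name 1 siRNA against the fusion transcript, so what the fusion's loss does and what the duplex itself does cannot be told apart, and they do not say how many tumors the culture stands for. In such bulk RNA, fewer cells that express a gene and less of its RNA per cell cannot be told apart.

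AP-1 is a dimeric transcription factor made of a Jun protein paired with a Fos, Jun or ATF protein, which binds short palindromic DNA sites. Most of its genes are immediate early genes: growth factors and stress switch them on through MAP kinases without new protein synthesis, and their mRNAs are short-lived. Fos and Fosb are the rapid Fos proteins, Fosl1 (Fra-1) and Fosl2 (Fra-2) the slower members that lack the strong activation domain of Fos, and Jun, Junb and Jund their partners. Atf3 is a stress-induced bZIP factor that pairs with Jun proteins, Egr1 a zinc finger factor induced by serum and MAP kinase signalling, and Ier3 a stress-inducible protein linked to cell survival and ERK signalling. In muscle lineage cells AP-1 is associated with proliferating myoblasts.

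Values are log2 levels, meaning log2 of the probe intensity after background correction and quantile normalization over the 16 arrays, and levels of different probes are not set against each other. The arrays of a group correlated at 0.992 to 0.996, and 12535 to 13135 probes were detected per array. Foxo1, used to check the labels, lay at 8.23 to 9.04 in knockdown cells and 9.24 to 9.62 in control cells, with no overlap; the sources used here do not give whether its probe reads the fusion transcript. Of the markers of other cell types, all 8 endothelial genes with a probe and 5 of 7 immune genes, Ptprc and Adgre1 among them, were detected on no array. Others were present: 3 of 7 epithelial and neural genes with a probe, Krt8, Krt18 and Map2, were detected on all 16 arrays. Of 9 fibroblast and adipocyte genes Pdgfra was detected on all 16 arrays and 5 on none. The paper describes Pdgfra as a direct target of Pax3:Foxo1a, so it does not mark another cell type here. Of 9 muscle lineage genes with a probe, 5 were detected on all 16 arrays, and Myod1, a defining gene of the lineage, on none.

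Fosl1 was lower and Atf3 and Ier3 higher in knockdown 2N and 4N cells than in control cells of the same DNA content. Among the Jun genes Jund was higher in knockdown 2N and 3N cells, and Fos was lower in knockdown 3N cells. In 4N cells 3 of 9 members passed an adjusted p of 0.05 (limma, Benjamini-Hochberg over 9146 genes), where 19.1% of all genes did, 9.83% of them higher and 9.26% lower with knockdown. In 2N cells 4 of 9 passed, against 21.4% of all genes, 10.9% higher and 10.4% lower. In 3N cells 3 of 9 passed, against 12.9% of 9306 genes, 6.46% higher and 6.47% lower. Over the 9 members the median log2 difference, knockdown minus control, was -0.12 in 4N cells, 0.08 in 2N cells and -0.28 in 3N cells, and over all genes it was -0.01 in each of the 3. With the experiment as a block, 5 of 9 members passed in 3N cells, against 19.9% of all genes, and 4 of 9 in 4N cells, against 25.1%. Each experiment gives 1 value per group, with 3 experiments for 2N and 4N cells and 2 for 3N cells. The p-values rest on the spread between arrays within groups, pooled over the groups of a fit. Without a block they take the arrays of 1 experiment as independent. Whether groups overlap is given below as a description only. With 2 or 3 arrays per group a separation by itself is weak, and its share over all genes is not given here.

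**Figure D1:**
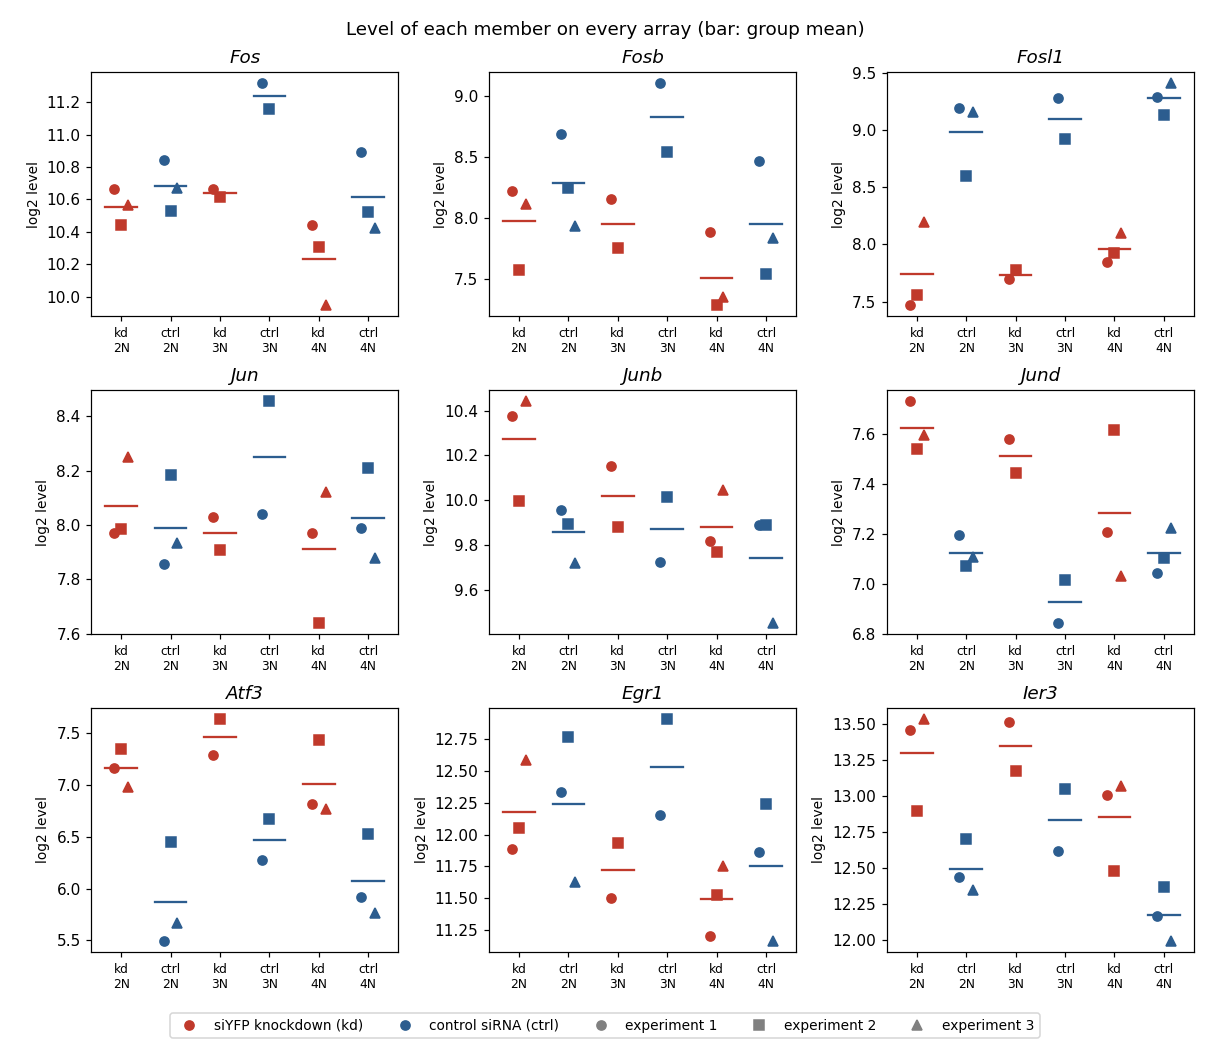
Log2 level of the 9 measured members on each of the 16 arrays (y axis), by siRNA and DNA content (x axis), with the experiment as the symbol and the group mean as a bar. All 8 knockdown arrays of Fosl1 (up to 8.19) lie under all 8 control arrays (8.60 and above), and all 8 knockdown arrays of Atf3 (6.77 and above) lie over all 8 control arrays (up to 6.67).

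Fosl1, which encodes the AP-1 subunit Fra-1, was lower in knockdown cells at every DNA content. Its log2 levels in experiments 1, 2 and 3 were 7.85, 7.92 and 8.10 in knockdown 4N cells, against 9.29, 9.13 and 9.41 in control 4N cells. In 2N cells they were 7.47, 7.55 and 8.19 with knockdown, against 9.19, 8.60 and 9.16 in control. In 3N cells of experiments 1 and 2 they were 7.69 and 7.77 with knockdown, against 9.28 and 8.92 in control. The groups did not overlap in any gate, and the highest knockdown array, 2N of experiment 3, stayed below the lowest control array, 2N of experiment 2. The log2 difference was -1.32 ± 0.20 in 4N cells (SE, limma adjusted p = 0.000725), a level 2.49-fold lower with knockdown. It was -1.24 ± 0.20 in 2N cells (SE, limma adjusted p = 0.00102) and -1.36 ± 0.24 in 3N cells (SE, limma adjusted p = 0.00165). By DNA content the mean was 7.74 ± 0.40 in knockdown 2N, 7.73 ± 0.06 in knockdown 3N and 7.96 ± 0.13 in knockdown 4N cells (SD, n = 3, 2 and 3). It was 8.98 ± 0.33 in control 2N, 9.10 ± 0.26 in control 3N and 9.28 ± 0.14 in control 4N cells (SD, n = 3, 2 and 3). Neighbours in that order overlapped, apart from knockdown 3N (up to 7.77) and knockdown 4N cells (7.85 and above). In control cells 4N exceeded 2N in 3 of 3 experiments, by 0.10, 0.53 and 0.25, a difference of 0.29 ± 0.20 that missed the threshold (SE, limma adjusted p = 0.500), also with experiment and siRNA together as a block (adjusted p = 0.181). The call was kept under each alternative run for each of the 3 gates, with log2 differences between -1.55 and -0.95.

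Fos and Fosb, the rapid Fos genes, had their highest group mean in control 3N cells and their lowest in knockdown 4N cells, as had Jun and Egr1. Fos stood at 10.66 and 10.61 in knockdown 3N cells of experiments 1 and 2, against 11.32 and 11.16 in control 3N cells. In 4N cells it was 10.44, 10.31 and 9.95 with knockdown, against 10.89, 10.52 and 10.43 in control, and in 2N cells 10.66, 10.44 and 10.56 with knockdown, against 10.84, 10.53 and 10.67 in control. The 3N groups did not overlap, whereas those of 4N and of 2N cells did. Fos was lower in knockdown 3N cells by a log2 difference of -0.60 ± 0.18 (SE, limma adjusted p = 0.0399), 1.51-fold. In 4N cells the difference was -0.38 ± 0.15 (SE, adjusted p = 0.110), which passed with the experiment as a block (adjusted p = 0.0296), and in 2N cells it was -0.12 ± 0.15 (SE, adjusted p = 0.623). Within experiments the Fos difference was negative in 8 of 8 pairs of arrays, from -0.65 to -0.09; 16% of all 9306 genes were lower in all 8 pairs. The 3N call rested on each of the 4 arrays of 3N cells: leaving out 1 of them gave adjusted p = 0.0834 to 0.181, leaving out control 2N of experiment 3, knockdown 2N of experiment 3 or knockdown 4N of experiment 2 gave 0.0502 to 0.0508, and with no filter on detection it was 0.0558.

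Fosb was at 8.15 and 7.75 in knockdown 3N cells, against 9.11 and 8.54 in control 3N cells. In 4N cells its levels were 7.88, 7.29 and 7.35 with knockdown, against 8.47, 7.54 and 7.84 in control. In 2N cells they were 8.22, 7.58 and 8.12 with knockdown, against 8.69, 8.24 and 7.94 in control. Knockdown was lower in 7 of 8 pairs, the exception being 2N cells of experiment 3, while the 4N and 2N groups overlapped, and experiment 1 was the highest array of every group. The log2 difference was -0.87 ± 0.33 in 3N cells (SE, limma adjusted p = 0.106, and 0.00382 with the experiment as a block). It was -0.44 ± 0.27 in 4N cells (adjusted p = 0.295) and -0.32 ± 0.27 in 2N cells (adjusted p = 0.455). Of all measured genes Fos had the pattern most like that of Fosb over the 16 arrays, with a root mean square difference of 0.25 between their centred log2 levels.

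Because Fos was the gene with the pattern most like that of Fosb, the 250 bases before their starts are shown, 5′ to 3′ on the gene's strand, from RefSeq (build GRCm38.p6). Such a table entry exists for 8 of the 10 members. Each window was searched on both strands for TATAAA, the AP-1 site TGANTCA, the cyclic AMP response element TGACGTCA and its core TGACG, the EGR site GCGNGGGCG, CCAAT, and the CArG box bound by serum response factor; matches are in capitals.
Fos: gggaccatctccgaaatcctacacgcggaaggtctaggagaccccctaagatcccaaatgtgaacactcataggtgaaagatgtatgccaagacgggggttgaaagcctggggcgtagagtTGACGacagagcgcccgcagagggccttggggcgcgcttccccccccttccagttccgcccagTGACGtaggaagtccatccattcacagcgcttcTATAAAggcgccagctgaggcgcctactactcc
Fosb: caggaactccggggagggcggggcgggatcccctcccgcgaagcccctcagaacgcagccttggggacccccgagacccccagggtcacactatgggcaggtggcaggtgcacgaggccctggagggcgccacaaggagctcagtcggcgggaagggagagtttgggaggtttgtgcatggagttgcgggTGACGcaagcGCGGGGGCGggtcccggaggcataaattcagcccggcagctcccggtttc
The Fos window (chr12:85473640-85473889, forward strand) holds TATAAA at bases 33 to 28 before the start and TGACG at 129 to 125 and at 66 to 62. The Fosb window (chr7:19310046-19310295, reverse strand) holds TGACG at 60 to 56 and an EGR site at 50 to 42. Of 32851 mouse promoter windows of this length, 12.4% hold TATAAA, 17.8% TGACG and 4.70% an EGR site. The full AP-1 site (6.75% of windows), cyclic AMP response element (1.55%) and CArG box (1.47%) were found in none of the 8 members' windows. Bases outside these 250 were not searched, so a site further from the start would be missed. A match is a run of letters, and no binding was measured.

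Among the Jun genes only Jund passed a knockdown comparison. Jund, the most constitutive of them, was at 7.73, 7.54 and 7.60 in knockdown 2N cells, against 7.19, 7.07 and 7.11 in control 2N cells. In 3N cells it was at 7.58 and 7.44 with knockdown, against 6.84 and 7.01 in control. In 4N cells it was at 7.21, 7.62 and 7.03 with knockdown, against 7.04, 7.10 and 7.22 in control. The 2N and the 3N groups did not overlap, and the 4N groups did, with experiment 3 lower in knockdown. Jund rose by a log2 difference of 0.50 ± 0.14 in 2N cells (SE, limma adjusted p = 0.0209) and 0.58 ± 0.16 in 3N cells (SE, limma adjusted p = 0.0263), and the difference in 4N cells was 0.16 ± 0.14 (SE, adjusted p = 0.469). Both calls depend on single arrays. The 2N call was lost without control 2N of experiment 2 (adjusted p = 0.0548), control 2N of experiment 3 (0.0569) or knockdown 2N of experiment 1 (0.0733), and the 3N call without any 1 of the 4 arrays of 3N cells (0.0559 to 0.150).

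Junb, a Jun protein that often restrains Jun, was at 10.38, 10.00 and 10.44 in knockdown 2N cells, against 9.96, 9.89 and 9.72 in control 2N cells. In 4N cells it was at 9.82, 9.77 and 10.05 with knockdown, against 9.89, 9.89 and 9.45 in control, and in 3N cells at 10.15 and 9.88 with knockdown, against 9.73 and 10.02 in control. The 2N groups did not overlap, and the 3N and 4N groups did. The 2N difference of 0.41 ± 0.15 missed the threshold (SE, limma adjusted p = 0.0755), and it passed without background correction (0.38, adjusted p = 0.0426) and without knockdown 2N of experiment 2 (0.55, adjusted p = 0.0331). Jun itself ranged only from 7.64 to 8.46 over the 16 arrays. Its levels were 7.97, 7.64 and 8.12 in knockdown 4N cells, against 7.99, 8.21 and 7.88 in control 4N cells, and 7.97, 7.99 and 8.25 in knockdown 2N cells, against 7.85, 8.18 and 7.93 in control 2N cells. In 3N cells Jun was at 8.03 and 7.91 with knockdown, against 8.04 and 8.46 in control. These groups overlapped in 2N and 4N cells, and in 3N cells they were apart only by 8.03 against 8.04. The log2 differences were -0.12 ± 0.15 in 4N, 0.08 ± 0.15 in 2N and -0.28 ± 0.19 in 3N cells (SE, limma adjusted p = 0.652, 0.761 and 0.388).

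**Figure D2:**
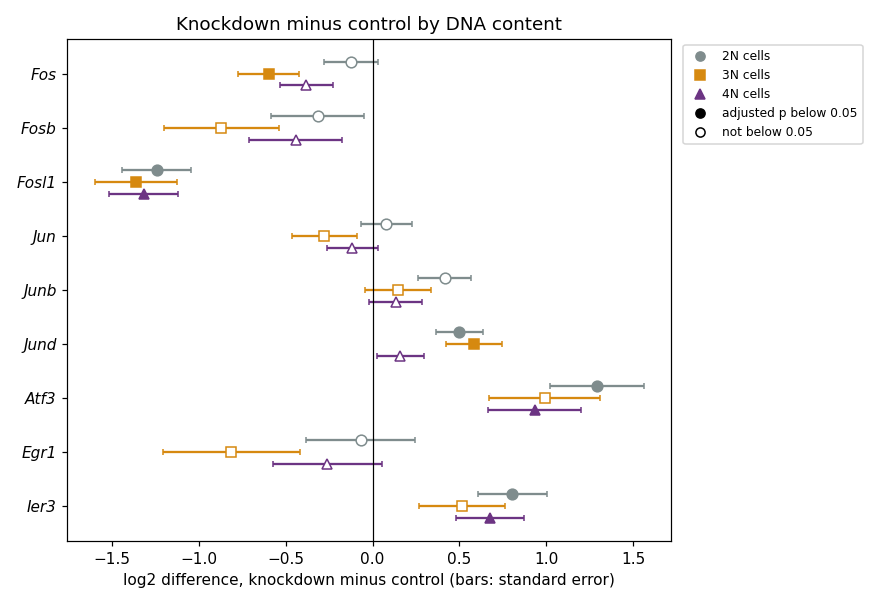
Log2 difference, knockdown minus control (x axis), of each member in 2N, 3N and 4N cells, with the SE of the limma fit as bars and filled symbols for an adjusted p below 0.05. Fosl1 lies between -1.36 and -1.24 and Atf3 between 0.93 and 1.29 in the 3 gates, while Jun lies between -0.28 and 0.08.

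Atf3 was near the limit of detection in control cells and above it on every knockdown array. In 4N cells it was at 6.81, 7.43 and 6.77 with knockdown, against 5.92, 6.52 and 5.77 in control. In 2N cells it was at 7.16, 7.35 and 6.98 with knockdown, against 5.49, 6.45 and 5.67 in control. In 3N cells it was at 7.29 and 7.64 with knockdown, against 6.28 and 6.67 in control. No group pair overlapped, and in each gate the array of experiment 2 was the highest of both siRNAs. All 8 knockdown arrays detected the probe, and of the control arrays 2 of 3 did in 4N, 1 of 3 in 2N and 2 of 2 in 3N cells. Atf3 rose by a log2 difference of 0.93 ± 0.27 in 4N cells (SE, limma adjusted p = 0.0298) and 1.29 ± 0.27 in 2N cells (SE, limma adjusted p = 0.00486), folds of 1.91 and 2.45 against control groups in which 2 of 3 and 1 of 3 arrays detected the probe. In 3N cells the difference was 0.99 ± 0.32 (SE, adjusted p = 0.0570, and 0.000732 with the experiment as a block). For so dim a probe the fold depends on the background correction: without it the log2 differences were 0.45 in 4N and 0.62 in 2N cells, still past the threshold. The 4N call was lost without control 4N of experiment 1 (adjusted p = 0.0892), control 4N of experiment 3 (0.110) or knockdown 4N of experiment 2 (0.115).

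The promoter window of Atf3 (chr1:191183334-191183583, reverse strand) is shown as that of a member higher on all 8 knockdown arrays, with capitals as before.
Atf3: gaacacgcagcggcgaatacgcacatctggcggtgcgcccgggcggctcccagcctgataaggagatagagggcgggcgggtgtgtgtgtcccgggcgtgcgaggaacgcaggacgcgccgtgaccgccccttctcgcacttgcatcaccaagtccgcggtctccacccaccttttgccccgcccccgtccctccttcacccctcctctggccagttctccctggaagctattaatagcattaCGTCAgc
It holds the TGACG core on the opposite strand at bases 7 to 3 before the start, printed as CGTCA, and no other motif of the search.

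Ier3 was higher in knockdown cells in 8 of 8 pairs of arrays, with a size that differed between experiments; 15.5% of all 9306 genes were higher in all 8 pairs. In 4N cells it was at 13.01, 12.47 and 13.07 with knockdown, against 12.16, 12.37 and 11.99 in control. In 2N cells it was at 13.46, 12.90 and 13.54 with knockdown, against 12.44, 12.70 and 12.34 in control, and in 3N cells at 13.52 and 13.17 with knockdown, against 12.62 and 13.05 in control. The groups did not overlap in any gate, but in experiment 2 knockdown exceeded control by no more than 0.20, against 0.84 to 1.19 in experiments 1 and 3. Over the experiments the log2 difference was 0.68 ± 0.20 in 4N cells (SE, limma adjusted p = 0.0318), 0.81 ± 0.20 in 2N cells (SE, limma adjusted p = 0.0126) and 0.51 ± 0.25 in 3N cells (SE, adjusted p = 0.205). In 4N cells the call was lost under median scaling (0.58, adjusted p = 0.121) and without control 4N of experiment 1 (adjusted p = 0.0762) or 3 (0.111) or knockdown 4N of experiment 1 (0.106) or 3 (0.112). In 2N cells it was lost without knockdown 2N of experiment 3 (0.69, adjusted p = 0.0504). The window before Ier3 (chr17:35821463-35821712, forward strand) is shown beside that of Atf3 because both rose.
Ier3: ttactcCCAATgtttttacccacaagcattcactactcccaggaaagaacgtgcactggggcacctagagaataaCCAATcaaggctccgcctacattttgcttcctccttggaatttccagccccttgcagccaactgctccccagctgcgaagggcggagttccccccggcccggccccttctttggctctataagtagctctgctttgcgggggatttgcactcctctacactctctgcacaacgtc
It holds CCAAT at bases 244 to 240 and 175 to 171 before the start, letters found in 33.8% of windows, and none of the motifs found in the Atf3 window.

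Egr1 went opposite ways in different experiments. In 4N cells it was at 11.20, 11.52 and 11.76 with knockdown, against 11.86, 12.24 and 11.16 in control. In 2N cells it was at 11.89, 12.05 and 12.59 with knockdown, against 12.33, 12.76 and 11.63 in control. In 3N cells, which experiment 3 lacks, it was at 11.50 and 11.94 with knockdown, against 12.16 and 12.91 in control. Knockdown was lower in all 3 gates of experiments 1 and 2 and higher in both gates of experiment 3, whose control arrays were the lowest controls and whose knockdown arrays the highest knockdown arrays of their gates. Within experiments 1 and 2 the log2 differences lay between -0.97 and -0.45, and in experiment 3 they were 0.59 in 4N and 0.96 in 2N cells. Averaged over experiments they were -0.26 ± 0.31 in 4N, -0.07 ± 0.31 in 2N and -0.81 ± 0.39 in 3N cells (SE, limma adjusted p = 0.632, 0.912 and 0.207).

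An F test of whether the knockdown difference varied between the experiments, added after the data were seen, passed for 2 of 9 members, Egr1 (limma adjusted p = 0.00870) and Ier3 (limma adjusted p = 0.0131), where 1.88% of 9306 genes passed. Relative to experiment 1, the Egr1 difference was 1.30 higher in experiment 3 and 0.21 lower in experiment 2, and the Ier3 difference was 0.20 higher in experiment 3 and 0.78 lower in experiment 2. Jun (adjusted p = 0.0556) and Junb (adjusted p = 0.0862) had their highest differences in experiment 3 as well, but gave no call. Atf3 (adjusted p = 0.538) and Fos (adjusted p = 0.760) gave none either. This test takes the sorted fractions of an experiment as separate measurements, and the labels do not say whether they came from 1 dish. A batch other than the experiment is not given in the labels, so the transfection, the sort and the hybridization of an experiment cannot be told apart. Without experiment 3, a fit with 2 arrays per group, 1 of 9 members passed in 4N and 1 of 9 in 2N cells, Fosl1 in both. The share of all genes in that smaller fit is not given here. Its log2 differences were 0.90 in 4N and 1.28 in 2N cells for Atf3, and 0.50 in 2N cells for Jund. For Ier3 they were 0.48 in 4N and 0.61 in 2N cells.

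**Figure D3:**
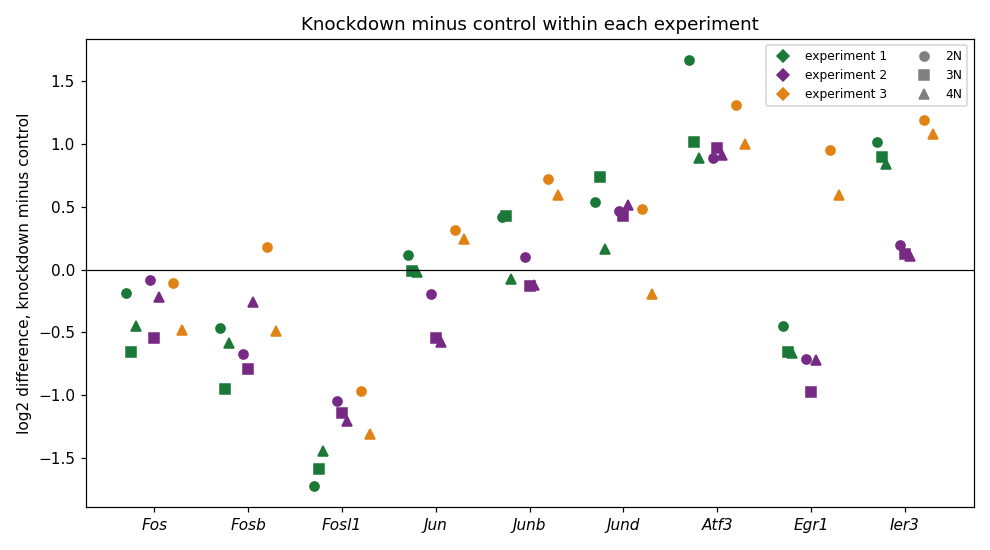
Log2 difference, knockdown minus control (y axis), of each member (x axis) within each experiment (colour) and DNA content (symbol). Fosl1 and Fos are below 0 and Atf3 and Ier3 above 0 in all 8 pairs, while Egr1 is below 0 in the 6 pairs of experiments 1 and 2 and above 0 in the 2 pairs of experiment 3.

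Across DNA content no member passed the threshold. Between 4N and 2N cells 0 of 9 members passed in knockdown cells, where 5.32% of 9146 genes did, and 0 of 9 in control cells, where 4.80% did; at an unadjusted p below 0.05 there were 3 and 0 (limma). Between 3N and 2N cells 0 of 9 passed in knockdown cells, against 6.10% of 9306 genes, and 0 of 9 in control cells, against 4.81%, with 0 and 1 at an unadjusted p below 0.05. These fits do not compare arrays within an experiment. Egr1 was lower in 4N than in 2N cells in 3 of 3 experiments with either siRNA: its 4N level was 0.68, 0.53 and 0.83 below the 2N level with knockdown and 0.47, 0.53 and 0.47 below it in control. Ier3 was likewise lower in 4N than in 2N cells in 3 of 3 experiments, by 0.45, 0.42 and 0.47 with knockdown and 0.27, 0.33 and 0.35 in control.

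With each combination of experiment and siRNA as a block, an alternative added after the data were seen, Egr1 was called lower in 4N than in 2N cells, by -0.68 ± 0.08 with knockdown (SE, limma adjusted p = 0.00249) and -0.49 ± 0.08 in control (SE, limma adjusted p = 0.0119). Ier3 was called lower by -0.45 ± 0.07 with knockdown (SE, limma adjusted p = 0.00828) and -0.32 ± 0.07 in control (SE, limma adjusted p = 0.0308), and Junb by -0.39 ± 0.09 with knockdown (SE, limma adjusted p = 0.0365). These were 3 of 9 members in knockdown cells, where 11.5% of all genes passed this fit, and 2 of 9 in control cells, where 10.4% did. In control cells Fos was higher in 3N than in 2N cells, at 11.32 and 11.16 in 3N against 10.84, 10.53 and 10.67 in 2N cells, with no overlap. That difference was 0.56 ± 0.16 (SE, limma adjusted p = 0.0695) and was called with the experiment as a block (0.50, adjusted p = 0.0246), as 1 of 9 members where 8.47% of all genes passed. In knockdown cells the Fos difference between 3N and 2N cells was 0.08 ± 0.16 (SE, adjusted p = 0.847).

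**Figure D4:**
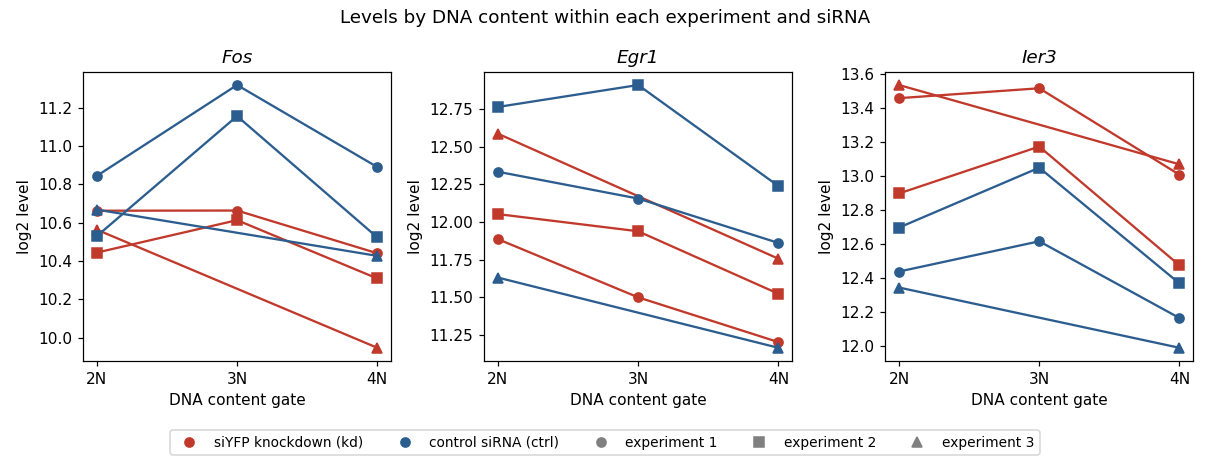
Log2 level (y axis) of Fos, Egr1 and Ier3 by DNA content gate (x axis), with a line for each experiment and siRNA; experiment 3 has no 3N array. Every line of Egr1 and Ier3 is lower at 4N than at 2N, and the highest values of Fos, 11.32 and 11.16, are those of control 3N cells.

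Whether the knockdown difference itself depended on DNA content was tested as an interaction. Between 4N and 2N cells 0 of 9146 genes passed (limma), with 293 at an unadjusted p below 0.05 and none of the 9 members among them. Between 3N and 2N cells 0 of 9306 genes passed, with 353 at an unadjusted p below 0.05 and no member among them. With the experiment as a block 1 of 9306 genes (0.0107%) passed, with 590 at an unadjusted p below 0.05, among them Fos (unadjusted p = 0.0142, adjusted p = 0.645) and Fosb (unadjusted p = 0.0276, adjusted p = 0.709). The largest member estimates were for Atf3, -0.36 ± 0.38 in 4N relative to 2N cells, and for Egr1, -0.75 ± 0.51 in 3N relative to 2N cells (SE). For Fos in 3N relative to 2N cells the estimate was -0.47 ± 0.23 (SE, unadjusted p = 0.0574, adjusted p = 0.999). A call in 1 gate and not in another, as for Fos and Jund, was therefore not shown to be a difference between the gates.

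By the likeness of their centred log2 levels over the 16 arrays, the genes nearest to Fosl1 were Cd53 and Mcpt8 (root mean square differences 0.17 and 0.18), and those nearest to Ier3 were Ppp1r15a, a stress-induced regulator of a protein phosphatase, and Mmp23 (0.18 and 0.23). Those nearest to Atf3 were Ptprd and Mcam (0.20 and 0.21), to Egr1 Zfp692 and Map11 (0.27 and 0.28), to Fos Slc8a1 and Sp1 (0.16 and 0.17), and to Fosb, after Fos, Dipk1c (0.26). Those nearest to Jun were Pcyt2 and E4f1 (0.09 and 0.10), to Junb Purb and Gtf2f1 (both 0.12), and to Jund Dennd2d and Ift122 (0.12 and 0.13). These distances are descriptions, and a member with little spread, such as Jun, lies near many genes.

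Gene lists around the members are given by their counts, with no test of a list. Of 14 measured feedback inhibitors of MAP kinase signalling 5 were lower and 1 higher in knockdown 4N cells (42.9% of them, where 19.1% of all genes passed), and 6 lower and 1 higher in 2N cells (50%, against 21.4%). Of 15 measured in 3N cells 4 were lower and 1 higher (33.3%, against 12.9%). Of all genes 9.26% were lower and 9.83% higher in 4N cells, 10.4% and 10.9% in 2N cells, and 6.47% and 6.46% in 3N cells. The median of the list's log2 differences was -0.28 in 4N, -0.29 in 2N and -0.12 in 3N cells. Dusp4, a phosphatase that switches off ERK, was lower by -1.23 ± 0.13 in 2N (SE, limma adjusted p = 6.66e-05) and -1.10 ± 0.15 in 3N cells (SE, limma adjusted p = 0.000268). Dusp6, which acts on ERK in the cytoplasm, was lower by -0.71 ± 0.13 in 4N cells (SE, limma adjusted p = 0.00299), and Nab1, a corepressor of EGR factors, by -0.78 ± 0.11 in 2N cells (SE, limma adjusted p = 0.000477). The single gene of this list that was higher was Dusp1, itself an immediate early gene, by 0.70 ± 0.16 in 2N (SE, limma adjusted p = 0.0104) and 0.91 ± 0.19 in 3N cells (SE, limma adjusted p = 0.00588).

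Of 22 measured kinases and factors that act on AP-1, 5 were lower and 3 higher in 4N cells (36.4%, against 19.1% of all genes), 4 lower and 1 higher in 2N cells (22.7%, near the 21.4% of all genes), and 4 lower and 3 higher in 3N cells (31.8%, against 12.9%). Map3k1, a kinase upstream of JNK, was lower by -0.76 ± 0.10 in 4N cells (SE, limma adjusted p = 0.000228), and Map2k3, which activates p38, by -0.66 ± 0.09 (SE, limma adjusted p = 0.000308). Of 21 AP-1 partners and other bZIP genes 3 were higher and 3 lower in 4N cells (28.6%), 5 higher and 2 lower in 2N cells (33.3%), and 2 higher and 1 lower in 3N cells (14.3%, near the 12.9% of all genes). Jdp2, a Jun-binding repressor, was higher by 0.67 ± 0.13 in 4N, 0.74 ± 0.13 in 2N and 0.70 ± 0.16 in 3N cells (SE, limma adjusted p = 0.00417, 0.00190 and 0.0117), and Batf3, another Jun partner, was lower by -0.95 ± 0.18 in 2N cells (SE, limma adjusted p = 0.00275).

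Of 34 other immediate early genes 6 were higher and 8 lower in 4N cells (41.2%, against 19.1% of all genes), 5 higher and 2 lower in 2N cells (20.6%, near the 21.4% of all genes), and 3 higher and 3 lower in 3N cells (17.6%, against 12.9%). Gadd45b, a stress-induced growth arrest gene, was higher by 1.18 ± 0.15 in 2N (SE, limma adjusted p = 0.000192) and 1.00 ± 0.18 in 3N cells (SE, limma adjusted p = 0.00188). Egr2, a relative of Egr1, was lower by -1.32 ± 0.27 in 3N cells (SE, limma adjusted p = 0.00497), at 7.80 and 7.81 with knockdown against 8.87 and 9.39 in control. Of 26 reported AP-1 target genes 5 were higher and 5 lower in 4N cells (38.5%, against 19.1%), 4 and 4 in 2N cells (30.8%, against 21.4%), and 2 higher and 4 lower in 3N cells (23.1%, against 12.9%). Hmox1, which degrades haem, and the matrix protease Mmp9 were higher in 2N cells by 1.02 ± 0.13 and 1.10 ± 0.20 (SE, limma adjusted p = 0.000281 and 0.00232). The matrix protease Mmp10 was at least 2.18-fold lower in 2N cells (limma adjusted p = 0.000242), where no knockdown array detected it. The protease inhibitor Timp1 was lower by -0.59 ± 0.11 in 3N cells (SE, limma adjusted p = 0.00280). The median differences of these lists, apart from the feedback inhibitors, lay between -0.19 and 0.25.

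Interferon response genes were mostly higher in knockdown cells too, and so was the heat shock gene Hspa1a in 4N and 2N cells. Of 11 measured interferon response genes 9 were higher and 0 lower in knockdown 4N cells, and 9 and 0 in 2N cells. In 3N cells 8 were higher and 0 lower. The medians were 1.31, 0.95 and 1.68. Past the threshold were 81.8%, 81.8% and 72.7% of the list, against 19.1%, 21.4% and 12.9% of all genes. Of 10 heat shock genes 2 were higher and 1 lower in 4N cells (30%, against 19.1% of all genes). In 2N cells 1 was higher and 0 lower (10%, against 21.4%), and in 3N cells 2 and 0 (20%, against 12.9%). The medians of this list were -0.08, -0.02 and -0.03 in 4N, 2N and 3N cells. Within it Hspa1a, a heat-inducible chaperone, was higher by 2.94 ± 0.21 in 4N and 2.97 ± 0.21 in 2N cells (SE, limma adjusted p = 3.25e-06 and 6.09e-06).

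Among the markers of cell types some were higher and others lower in knockdown cells. The summed linear level of the 9 muscle lineage genes with a probe was 2489 to 3073 in knockdown 4N cells, against 3128 to 3891 in control 4N cells, 2767 to 2942 in knockdown 2N cells, against 2982 to 4006 in control 2N cells, and 2341 to 2730 in knockdown 3N cells, against 2622 to 3330 in control 3N cells. The 4N and the 2N groups did not overlap. Chrna1 dominates this sum, at log2 levels of 10.58 to 11.71 over the 16 arrays, where no other gene of the list exceeded 8.56. The sum therefore mainly follows Chrna1 and does not stand for the list. Of the 7 muscle lineage genes in the test 1 was higher and 1 lower in 4N cells (28.6%, against 19.1% of all genes). In 2N cells 3 were higher and 1 lower (57.1%, against 21.4%), and in 3N cells 0 passed, against 12.9%. In 2N cells Mylpf, a myosin light chain of fast muscle, was higher by 1.38 ± 0.37, Chrng, an acetylcholine receptor subunit, by 1.19 ± 0.34 and Des, the muscle intermediate filament, by 0.52 ± 0.17, and Chrna1, another receptor subunit, was lower by -0.65 ± 0.15 (SE, limma adjusted p = 0.0205, 0.0251, 0.0496 and 0.0101).

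The sum over the 7 epithelial and neural markers with a probe, which Krt8 and Krt18 dominate, was 15661 to 18561 in knockdown 4N cells, against 12348 to 14952 in control 4N cells, 12625 to 15530 in knockdown 2N cells, against 11091 to 14841 in control 2N cells, and 15850 to 16837 in knockdown 3N cells, against 10887 to 12353 in control 3N cells. The 4N and the 3N groups did not overlap. Elavl3 of this list was detected on no array. Of the list's 6 tested genes 1 was higher and 1 lower in 4N cells (33.3%, against 19.1% of all genes). In 2N cells 2 were higher and 1 lower (50%, against 21.4%), and in 3N cells 2 and 1 (50%, against 12.9%). The gene that was lower was the keratin Krt19, by -0.88 ± 0.19 in 4N and -1.14 ± 0.19 in 2N cells (SE, limma adjusted p = 0.00670 and 0.00118, detected on 1 of 3 knockdown arrays in each) and at least 1.99-fold in 3N cells (limma adjusted p = 0.00259), where no knockdown array detected it. Cdh1, the epithelial cadherin, was at least 2.33-fold higher in knockdown 4N and 1.98-fold higher in knockdown 2N cells (limma adjusted p = 2.70e-06 and 2.96e-05), with no control array of those gates detecting it. Such a bound sets the mean of the brighter group against, per array of the other, the higher of the lowest detected signal and the probe's own.

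The sum over the 9 fibroblast and adipocyte markers with a probe was 674 to 802 in knockdown 4N cells, against 708 to 792 in control 4N cells, 713 to 959 in knockdown 2N cells, against 872 to 931 in control 2N cells, and 691 to 726 in knockdown 3N cells, against 765 to 861 in control 3N cells. Only the 3N groups did not overlap. Pdgfra was the brightest gene of this list, at log2 levels of 7.80 to 9.41 over the 16 arrays, where no other exceeded 7.73. With 5 of the 9 genes detected on no array, the sum does not stand for the list. Col1a1, a chain of collagen I, was higher by 1.62 ± 0.43 in knockdown 4N cells (SE, limma adjusted p = 0.0217, detected on 1 of 3 control arrays). In knockdown 2N cells it was at least 2.52-fold higher (limma adjusted p = 0.0115). For Pdgfra, a growth factor receptor of mesenchymal cells, the paper reports less protein with siYFP and describes the gene as a direct fusion target. Its RNA was lower by -0.73 ± 0.17 in knockdown 4N and -0.71 ± 0.17 in knockdown 2N cells (SE, limma adjusted p = 0.0122 and 0.0127). The part of all these changes in the values of Fosl1, Atf3, Ier3 and Jund was not tested.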

How the data were processed

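RNA of sorted cells was hybridized by the authors to 16 1-colour Illumina MouseRef-8 v2 arrays, 1 per RNA sample. The authors deposited the mean intensity of each probe from GenomeStudio before normalization, a detection fraction beside it (1 minus each deposited value gives the p of detection), and processed intensities equal to quantile normalization of the raw ones to within 0.0327 on the log2 scale. The sources used here do not give where a probe lies on its transcript.

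Background was removed by limma's normexp model, with its noise estimated from the detection p (offset 16), taken to log2 and quantile normalized over 16 arrays (limma 3.58.1, R 4.3.3). Genes were taken by their brightest probe, detected (p under 0.05) on at least 3 arrays of the fit. Symbols came from the platform annotation, updated by Entrez ID to RefSeq (GRCm38.p6), which names 23978 of 25697 probes; 1719 have none. A model with 1 mean per group was fitted to the 12 arrays of 2N and 4N cells (9146 genes, 8 residual and 3.95 prior degrees of freedom), and to all 16 arrays for 3N contrasts (9306 genes, 10 and 3.90). The Benjamini-Hochberg adjustment ran over all genes, with a threshold of 0.05. The number of arrays limits the precision.

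Experiment numbers in the labels mark a shared experiment and so pair the groups: deviations from the group means of arrays with 1 number correlated at 0.283 to 0.525 within an siRNA (14 of 14 pairs over 0.1) and at 0.0218 to 0.412 between siRNAs (17 of 22). A block by experiment, a block by experiment and siRNA, other background settings, scalings and filters, and leaving out arrays were alternatives. In 3N leave-one-out fits the lone array of a group was assumed to vary like the other groups.

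The members and gene lists were chosen with earlier results of these data known. All 10 members are described; of each list, genes named are among the 4 with the largest change past the threshold in the same direction in every experiment, and for each member the 2 genes of nearest pattern are named. Maff is on 2 lists, and Krt18 is both a reported AP-1 target and an epithelial marker. Scripts were tested on simulated data.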

Additional observations from a re-analysis of the deposited data

Results flagged for a closer look

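The knockdown difference of Egr1 varied between the experiments (limma F test, adjusted p = 0.00870): it was 0.59 in 4N and 0.96 in 2N cells of experiment 3, and between -0.97 and -0.45 in the 6 pairs of arrays of experiments 1 and 2. That of Ier3 varied as well (adjusted p = 0.0131), with 0.11, 0.20 and 0.12 in 4N, 2N and 3N cells of experiment 2 and 0.84 to 1.19 in experiments 1 and 3. The median difference of the 34 other immediate early genes was -0.04 in 4N and -0.03 in 2N cells of experiment 2, 0.28 and 0.07 in experiment 1, and 0.19 and 0.30 in experiment 3. Groups of 2 or 3 arrays are too small for a test of single outlying arrays.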

How the results depend on the processing

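Of 1719 values of members recomputed under an alternative, 1662 kept their side of the threshold, 29 lost and 28 gained a call, and none of the called values changed sign; 45 values below the threshold in both fits changed sign. With the experiment as a replicate block 5 rather than 3 members passed for knockdown in 3N cells, and 1 rather than 0 for 3N minus 2N in control cells. This second count was 1 also without background correction, with an offset of 50, with the authors' processed values, under median scaling, and with experiment and siRNA together as a block. In the last of these fits 3 members passed for 4N against 2N knockdown cells and 2 for 4N against 2N control cells, where 0 and 0 had passed. The blocks changed no other count of members beyond 1.5 times. Without experiment 3, and so with fewer arrays per group, 1 member passed for knockdown in 4N cells and 1 in 2N cells, against 3 and 4. The knockdown difference by experiment was called for 4 members, against 2, without background correction, with an offset of 50 and with the authors' values. For the alternatives other than the blocks, the shares of all genes passing are not given here. A change in their member counts is therefore not set apart from a change over all genes. Leaving out 1 array gave 1 to 3 members for knockdown in 4N cells, 3 to 5 in 2N and 1 to 4 in 3N cells, 0 to 1 for 4N against 2N knockdown cells and 0 to 0 for 4N against 2N control cells, 0 to 0 for 3N against 2N knockdown cells and 0 to 1 for 3N against 2N control cells, and 0 to 0 for the interaction. The count was 1 in 4N cells without control 4N of experiment 1 or 3, and 1 in 3N cells without any 1 of the 4 arrays of 3N cells. Without knockdown 4N of experiment 2, Jund was called lower in 4N than in 2N knockdown cells (-0.50, limma adjusted p = 0.0337), and Fos was called higher in 3N than in 2N control cells without control 4N of experiment 1 or knockdown 4N of experiment 3. Of all genes called in 4N cells 51.5% were higher with knockdown, against 37.1% under median scaling, in 2N cells 51.2% against 39.9%, and for 4N minus 2N 66.3% against 77.4% in knockdown and 61.7% against 76.1% in control cells, and for 3N minus 2N 61.8% against 72.7% in knockdown cells; the cause was not tested. Signal over background limits the size of the Atf3 difference, since 3 of 8 control arrays did not detect its probe.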
